A study of Mus musculus with 6 samples.

Results

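The interleukin-1 family genes Il1a, Il1b, Il1rn, Il18 and Il18bp and the inflammasome genes Casp1, Casp4, Nlrp3 and Pycard were followed in mouse macrophages after bacterial endotoxin. Members were all probes whose gene symbol in the platform's annotation was one of these 9 names. The annotation lists 17 such probes for 8 of the genes and none for Nlrp3, so Nlrp3 was not analysed here. Of the 17 probes 14 had a value on all 6 arrays, and they gave 8 of the 9574 named genes measured on every array. RAW 264.7 cells, a macrophage line from a mouse tumour raised with a leukaemia virus (RAW 264.4 in part of the labels), received lipopolysaccharide (LPS) at 100 ng/ml together with its binding protein (LBP) at 100 pM for 4 h, or were cultured untreated for 4 h. LPS is a component of the outer membrane of Gram-negative bacteria that Toll-like receptor signalling detects, and LBP carries it to that receptor. Treated and untreated total RNA were hybridised together on 6 two-colour arrays in 2 dye orientations, each with sets 1 to 3: 3 arrays carried treated RNA in Cy5 and untreated RNA in Cy3, and 3 the reverse. All values come from 1 transformed cell line, LPS and LBP were given together, and the labels name no arm with either agent alone.

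Interleukin-1α and interleukin-1β, encoded by Il1a and Il1b, signal through the same receptor and drive fever and local inflammation, and the receptor antagonist encoded by Il1rn occupies that receptor without signalling. Interleukin-1β and interleukin-18 are made as inactive precursors. Inflammasomes are cytosolic complexes in which a sensor such as NLRP3 gathers the adaptor ASC (Pycard), which activates caspase-1 (Casp1). Caspase-1 then cuts both precursors. Mouse caspase-11, the product of Casp4, binds intracellular LPS directly and sets off the non-canonical form of this pathway. Il18bp encodes a secreted protein that binds interleukin-18 and blocks it.

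After treatment 7 of the 8 measured genes rose and 0 fell. The rises ran in size from an 18.1-fold rise of Il1b to a 1.21-fold rise of Il18bp. Il1rn (8.93-fold) and Il1a (8.92-fold) followed Il1b, then Il18 (2.17-fold), Casp4 (1.92-fold) and Casp1 (1.65-fold). The adaptor gene Pycard, at 1.11-fold, did not pass the test. By the same test 29.0% of all 11364 features were called, 14.0% as higher and 15.0% as lower, and the median log2 change was 1.03 for the 8 genes against 0.00079 for all features. The genes were chosen with earlier results known, so these figures are a description of them.

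A change is the log2 of the ratio of treated to untreated RNA, so 1 unit is a doubling, and stands as mean ± SD over n = 3 sets. Each set is the average of its array with treated RNA in Cy5 and its array with treated RNA in Cy3, the second with its sign turned. Rises and falls were called at an adjusted p below 0.05 in limma's moderated test of the 3 set values against 0, with Benjamini-Hochberg adjustment over all features. This takes the arrays of a set as a pair of the same RNA, which the data do not show. Their deviations from the orientation means, after turning, correlated at -0.484, -0.512 and -0.0203 in sets 1, 2 and 3. Before turning the signs are reversed, so the arrays of sets 1 and 2 shared a deviation of the unturned ratio. Its source was not tested, and it can mask a shared deviation of the RNA. Averaging deviations of opposite sign narrows the SD between set means, so each SD and interval over sets depends on that pairing. The median standard error over all features was 0.0428 from the sets and 0.0708 from the 6 arrays taken singly, whose spread also holds the difference between dye orientations. An interval over the 6 arrays is therefore given for each member too. All 7 rises passed in that fit, which called 1203 of all 11364 features higher. The direction is the likely one, because the labels call the Cy5 RNA of each array the test, and a ratio taken the other way would turn all 7 rises into falls. An exact 0 was taken as not measured, which left 14195 to 15027 of 16281 probes on each array. Arrays of 1 orientation correlated across probes at 0.747 to 0.851, and those of opposite orientation, before turning, at -0.76 to -0.374. The ratios hold no signal level, so the macrophage label could not be checked by level. Of the listed macrophage markers 9 of 10 were measured on all arrays. After treatment 5 were higher (Adgre1, Fcgr1, Mpeg1, Lyz2 and Spi1) and 1 lower (Csf1r). These were 55.6% and 11.1% of the 9, against 14.0% and 15.0% of all features. Of 21 measured markers of T cells, B cells, fibroblasts, epithelium and neutrophils 1 (Elane, at 0.29 ± 0.13) was higher, with all 21 between -0.043 and 0.29, and their part in the results was not tested. A ratio of total RNA cannot tell more expressing cells from more RNA per cell.

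The promoters below show where the annotation starts the 3 genes with the largest rises and the neighbouring caspase genes. Each covers 250 bases before to 50 after a RefSeq gene start (build GRCm38.p6), 5′ to 3′ on the gene's strand. Capitals mark every match, on either strand, to 6 motifs: the kappaB consensus of NF-κB, a shorter kappaB form (GGNNTTTCC), the AP-1 site (TGANTCA), a C/EBP form (TTGCNNAA), the PU.1 core (GAGGAA) and an interferon response element (GAAANNGAA). Overlapping matches run together in capitals. Il1b lies at chr2:129371090-129371389, minus strand. Il1a lies at chr2:129309923-129310222, minus strand. Il1rn, the second of its 3 windows, lies at chr2:24345041-24345340, plus strand. Casp4, the first of its 2 windows, lies at chr9:5308599-5308898, plus strand, and Casp1 at chr9:5298267-5298566, plus strand.
Il1b: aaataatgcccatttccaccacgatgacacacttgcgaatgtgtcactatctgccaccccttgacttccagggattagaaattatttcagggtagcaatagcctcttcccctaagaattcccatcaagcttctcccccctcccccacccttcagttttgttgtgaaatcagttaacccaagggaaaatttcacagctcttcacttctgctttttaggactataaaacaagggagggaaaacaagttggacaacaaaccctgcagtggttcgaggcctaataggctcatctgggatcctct
Il1a: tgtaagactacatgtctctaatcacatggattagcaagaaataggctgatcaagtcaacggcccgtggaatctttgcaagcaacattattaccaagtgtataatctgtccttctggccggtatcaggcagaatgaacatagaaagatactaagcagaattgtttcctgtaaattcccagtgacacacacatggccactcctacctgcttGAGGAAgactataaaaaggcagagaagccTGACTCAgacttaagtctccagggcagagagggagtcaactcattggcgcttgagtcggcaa
Il1rn: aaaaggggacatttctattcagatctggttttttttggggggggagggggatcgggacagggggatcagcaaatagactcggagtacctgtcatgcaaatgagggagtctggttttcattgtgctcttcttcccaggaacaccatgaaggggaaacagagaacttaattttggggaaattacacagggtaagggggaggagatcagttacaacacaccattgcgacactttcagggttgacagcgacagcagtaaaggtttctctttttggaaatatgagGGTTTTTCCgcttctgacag
Casp4: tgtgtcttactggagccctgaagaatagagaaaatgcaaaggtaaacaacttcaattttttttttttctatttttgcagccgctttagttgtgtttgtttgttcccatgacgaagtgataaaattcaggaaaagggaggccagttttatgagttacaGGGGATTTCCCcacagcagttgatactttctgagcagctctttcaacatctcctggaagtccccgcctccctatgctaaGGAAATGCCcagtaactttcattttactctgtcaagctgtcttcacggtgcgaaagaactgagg
Casp1: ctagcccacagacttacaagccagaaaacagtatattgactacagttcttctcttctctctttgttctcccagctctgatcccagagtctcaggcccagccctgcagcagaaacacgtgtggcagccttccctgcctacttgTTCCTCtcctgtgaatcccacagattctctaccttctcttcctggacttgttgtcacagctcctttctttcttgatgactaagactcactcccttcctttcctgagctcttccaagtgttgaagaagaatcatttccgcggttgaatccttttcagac

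The Casp4 window held 2 overlapping matches to the kappaB consensus, which start at positions -93 and -92 from the gene start, and matches to the shorter form at -92 and -14. The consensus occurred in 4.51% of 32851 promoter windows of the same length and the shorter form in 5.82%. In the Il1a window an AP-1 match starts at -12 (7.81% of windows) and a PU.1 core at -41 (28.3%). The Il1rn window shown held a shorter kappaB match at 31, within the transcribed part. The window that follows overlaps it and holds this same site, there at -50. The first Il1rn window had an AP-1 match at -141. Casp1 had only a PU.1 core on the opposite strand, at -108. None of the 6 motifs was in the Il1b window, which says only that these letters are not in these 300 bases. Among the measured members whose windows are not printed, Il18 had no match, Il18bp a C/EBP form at -49 (10.8% of windows), and Pycard a C/EBP form at -142 and a PU.1 core at -42. The interferon response element, present in 8.56% of windows, matched in none of the members' windows.

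Il1b, the gene of the fever-inducing interleukin-1β, stood at 4.86, 4.74 and 4.61 on the arrays of sets 1, 2 and 3 with treated RNA in Cy5, and at 3.59, 3.49 and 3.75 on those with treated RNA in Cy3. All 6 values lay far above 0, and the orientations did not overlap. The set means were 4.23, 4.12 and 4.18, so the change was 4.17 ± 0.055 (SD, n = 3), an 18.1-fold rise with a 95% confidence interval of 16.8 to 19.4 (limma adjusted p = 1.59e-08). Over the 6 arrays without set numbers the SD was 0.63 and the interval 13.0-fold to 25.1-fold. It ranked 3 among the rises of all 9574 named genes. Its 3 probes rose by 3.87 ± 0.21 (probe 1321), 4.62 ± 0.087 (probe 3465) and 4.03 ± 0.15 (probe 11552). Probe 3465 was the highest of the 3 on every array, and the probes spanned 0.75 between their means.

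Il1a, the gene of interleukin-1α, which is active without cutting by caspase-1, stood at 3.50, 2.56 and 3.77 on the arrays of sets 1, 2 and 3 with treated RNA in Cy5, and at 3.18, 2.82 and 3.11 with treated RNA in Cy3. The lowest value of each orientation was that of set 2, and the orientations overlapped. The change was 3.16 ± 0.41, or 8.92-fold with a 95% confidence interval of 7.22 to 11.0 (limma adjusted p = 2.92e-06), and of 7.05 to 11.3 over the 6 arrays. Its spread between sets was the widest of the 8 genes, and without set 2 the change was 3.39. Its probes, at 3.13 ± 0.49 (probe 2818) and 3.18 ± 0.33 (probe 16708), lay 0.054 apart.

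Il1rn, the gene of the receptor antagonist, stood at 3.59, 3.68 and 3.04 on the arrays of sets 1, 2 and 3 with treated RNA in Cy5, and at 2.91, 3.03 and 2.70 with treated RNA in Cy3. Set 3 was lowest in both orientations, and the orientations did not overlap. The change was 3.16 ± 0.26, or 8.93-fold with an interval of 7.74 to 10.3 (limma adjusted p = 4.02e-07), and of 7.23 to 11.02 over the 6 arrays. It rests on probe 6346 alone, since probe 18401 of the gene was listed at exactly 0 on all 6 arrays, and averaging those zeros in gave 1.58.

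**Figure D1:**
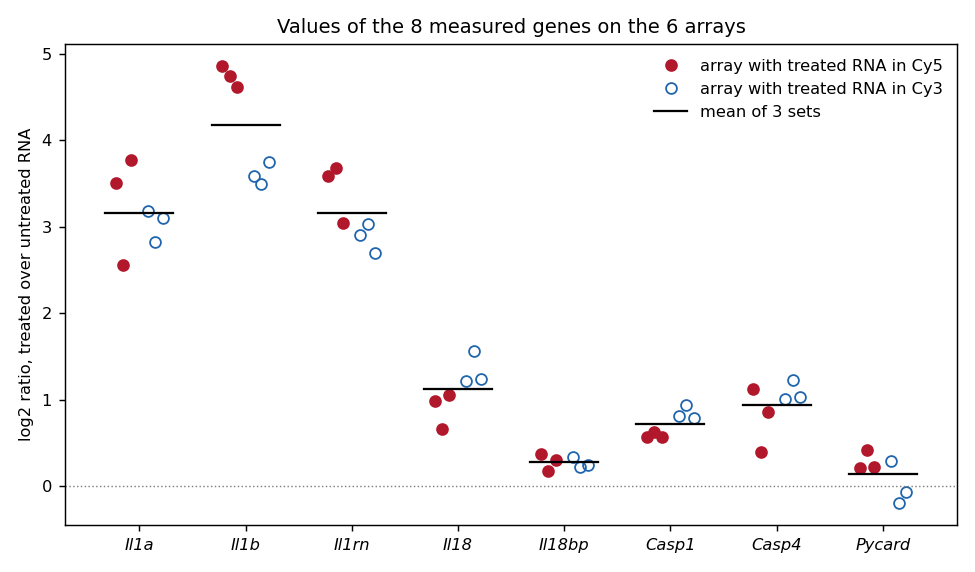
Log2 ratios of treated over untreated RNA (vertical axis) on each of the 6 arrays for the 8 measured genes, with filled red points for arrays with treated RNA in Cy5, open blue points for arrays with treated RNA in Cy3 (sets 1, 2 and 3 from left to right in each), and a bar at the mean of the 3 sets. The lowest of all values of Il1a, Il1b and Il1rn is 2.56, and Pycard alone has arrays below 0.

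Among these 3 genes the change of Il1b exceeded that of its antagonist Il1rn in every set, by 0.98, 0.76 and 1.31 in sets 1, 2 and 3 (mean 1.02 ± 0.28). It exceeded that of Il1a by 0.88, 1.42 and 0.74 (mean 1.02 ± 0.36). Both leads of Il1b were smaller with treated RNA in Cy3. There Il1b, Il1rn and Il1a averaged 3.61, 2.88 and 3.04, against 4.74, 3.44 and 3.28 with it in Cy5. The difference of Il1a minus Il1rn was 0.092, -0.66 and 0.57, so the sign varied with the set and neither gene's change was larger beyond the spread. These are differences between ratios of different probes, and no test was made of them. With 3 sets an exact sign-flip test could not fall below 0.25.

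Il18, the gene of the other cytokine that caspase-1 activates, stood at 0.99, 0.66 and 1.06 on the arrays of sets 1, 2 and 3 with treated RNA in Cy5, and at 1.21, 1.56 and 1.24 with treated RNA in Cy3. All 6 values were above 0 and those of the Cy3 orientation were the higher. The set means of 1.10, 1.11 and 1.15 differed far less than the arrays did, which gave a change of 1.12 ± 0.026, or 2.17-fold with an interval of 2.03 to 2.33 (limma adjusted p = 1.82e-06). The SD over the 6 arrays was 0.30, and the interval from them 1.84-fold to 2.57-fold. Probe 7848 was at 1.27 ± 0.058 and probe 15422 at 0.97 ± 0.094, whose lowest array value, 0.24, was that of set 2 with treated RNA in Cy5.

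Il18bp, the gene of the interleukin-18 blocker, stood at 0.37, 0.18 and 0.30 on the arrays of sets 1, 2 and 3 with treated RNA in Cy5, and at 0.34, 0.23 and 0.25 with treated RNA in Cy3. Every value was small and above 0, and the orientations overlapped. The change was 0.28 ± 0.079, or 1.21-fold with an interval of 1.12 to 1.31 (limma adjusted p = 0.00378), and of 1.13 to 1.31 over the 6 arrays. The call ended with treated RNA in Cy5 alone (0.28, adjusted p = 0.0556) and when exact zeros were averaged in (0.17, adjusted p = 0.0683), against a highest adjusted p of 0.025 when a set was left out. Probes 5856 and 12850 were at 0.26 ± 0.051 and 0.30 ± 0.11. A further probe, 18452, had a value on 1 array only, at -0.33. The change of Il18 exceeded that of Il18bp by 0.74, 0.91 and 0.87 in sets 1, 2 and 3 (mean 0.84 ± 0.087).

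Casp1, the gene of the protease that matures both cytokines, stood at 0.57, 0.63 and 0.57 on the arrays of sets 1, 2 and 3 with treated RNA in Cy5, and at 0.81, 0.94 and 0.79 with treated RNA in Cy3. The orientations did not overlap, and set 2 was highest in each. The change was 0.72 ± 0.055, or 1.65-fold with an interval of 1.53 to 1.77 (limma adjusted p = 2.38e-05), and of 1.49 to 1.82 over the 6 arrays. It rests on probe 14113, since probe 7394 was listed at exactly 0 on all 6 arrays, and averaging those zeros in gave 0.36.

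Casp4, the gene of caspase-11, the intracellular LPS receptor of mice, stood at 1.13, 0.39 and 0.86 on the arrays of sets 1, 2 and 3 with treated RNA in Cy5, and at 1.00, 1.23 and 1.03 with treated RNA in Cy3. Set 2 held both the lowest and the highest of the 6 values. The change was 0.94 ± 0.13, or 1.92-fold with an interval of 1.75 to 2.10 (limma adjusted p = 2.14e-05), and of 1.63 to 2.26 over the 6 arrays. Its probes gave different sizes, at 0.64 ± 0.068 (probe 9126) and 1.24 ± 0.19 (probe 12526), and both rose. Casp1, Casp4 and Casp12 are related genes, and binding of a probe to a relative's transcript was not tested.

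Pycard, the gene of the adaptor ASC, stood at 0.21, 0.43 and 0.23 on the arrays of sets 1, 2 and 3 with treated RNA in Cy5, and at 0.29, -0.19 and -0.068 with treated RNA in Cy3. The values had both signs in the Cy3 orientation. Since the ratios hold no signal level, they do not show whether Pycard was expressed in these cells. The change was 0.15 ± 0.089, or 1.11-fold with an interval of 1.02 to 1.20 before adjustment, and did not pass (limma adjusted p = 0.0606). Over the 6 arrays the interval was 0.969 to 1.27 (adjusted p = 0.31). It passed after quantile normalization between arrays (0.16, adjusted p = 0.0479). Probe by probe, 13 of the 14 member probes rose, all but that of Pycard, in a fit of single probes that called 14.1% of 13415 as higher.

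**Figure D2:**
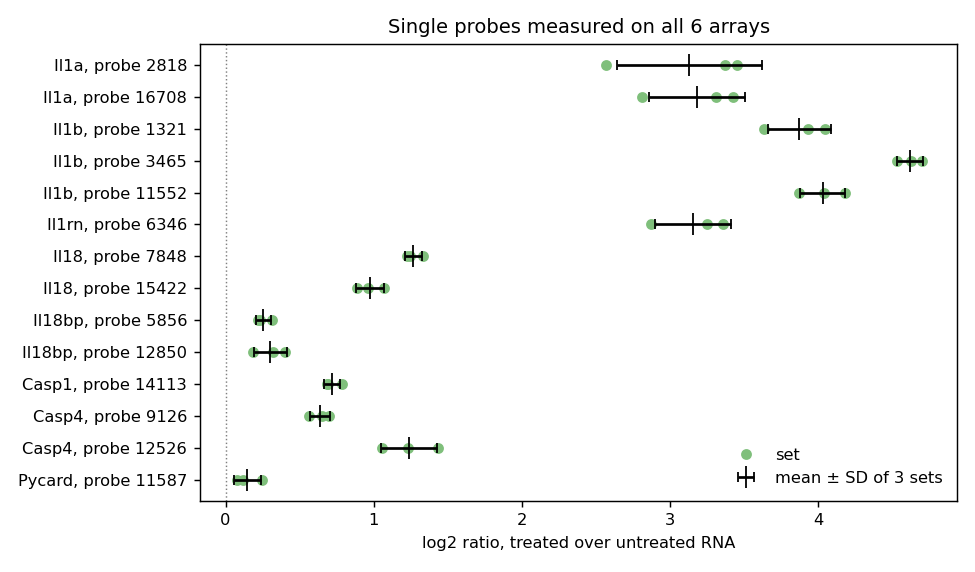
Log2 ratios of treated over untreated RNA (horizontal axis) for the 14 probes measured on every array, with a green point for each of the 3 sets and a black mark and bar for their mean ± SD. The Il1b probes lie between 3.87 and 4.62, and probe 12526 of Casp4 lies above probe 9126, at 1.24 against 0.64.

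By set means, the order of change was Il1b, Il1rn, Il1a, Il18, Casp4, Casp1, Il18bp and Pycard. The set values of neighbours in this order overlapped for Il1rn and Il1a and for Il18bp and Pycard, and did not for the others. On single arrays the values also overlapped for Il1b and Il1rn, for Il18 and Casp4, and for Casp4 and Casp1. The Casp4 probes, at 0.64 and 1.24, lay on both sides of the changes of Casp1 (0.72) and Il18 (1.12). The order of Il18, Casp4 and Casp1 therefore varied with the Casp4 probe. Casp4 exceeded Casp1 by 0.38, 0.027 and 0.26 in sets 1, 2 and 3. Il18 exceeded Casp4 by 0.034, 0.30 and 0.21. Il1rn and Il1a ranked 26 and 27 among the rises of named genes, Il18 171, Casp4 207, Casp1 279 and Il18bp 764, and Pycard was at 1398. Rises of at least 2-fold that passed the test were found for 1.87% of all features, and for Il1b, Il1rn, Il1a and Il18 here. By a test against a 1.5-fold change, Casp1 (adjusted p = 0.287) and Il18bp (adjusted p = 1) did not pass, and the other 5 did.

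**Figure D3:**
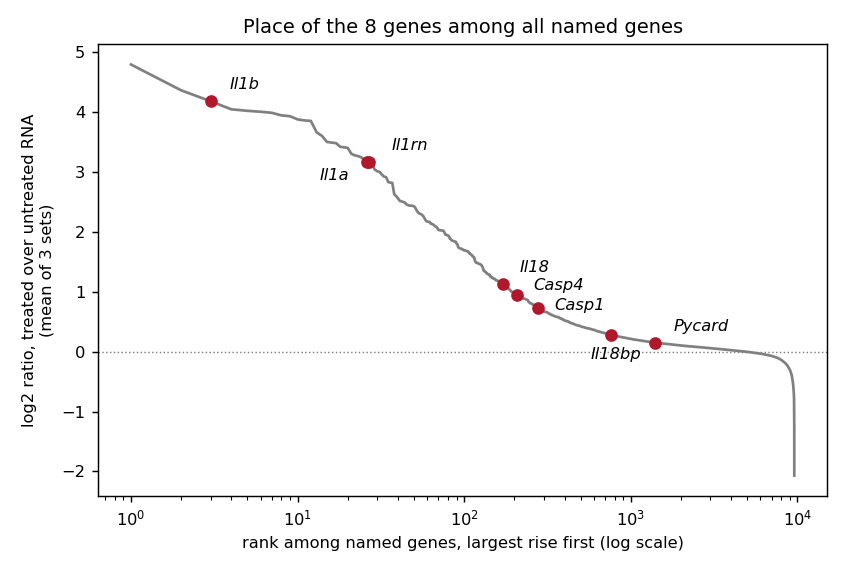
Mean log2 ratio of treated over untreated RNA (vertical axis) of the 9574 named genes against their rank by rise (horizontal axis, log scale), with the 8 genes as red points. Il1b is at rank 3 and Il1rn and Il1a at 26 and 27, while Pycard lies at rank 1398 near 0.

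The size of the change differed between the dye orientations for several members, though no difference passed the test. Il1b averaged 4.74 ± 0.12 with treated RNA in Cy5 and 3.61 ± 0.13 with it in Cy3 (SD, n = 3 arrays each), and Il1rn 3.44 ± 0.34 and 2.88 ± 0.17. Il18 ran the other way, at 0.90 ± 0.21 and 1.34 ± 0.19, as did Casp1, at 0.59 ± 0.034 and 0.85 ± 0.077. The orientations did not overlap for these 4 of the 8 genes, against 37.9% of all features. The adjusted p of the dye effect in limma's test was 0.166 for Il1b and Il1rn, 0.246 for Il18 and 0.17 for Casp1, so none passed. With 3 sets this does not show that the orientations gave equal changes. Over all 11364 features limma called 0 dye effects (percent called 0) with 2630 at an unadjusted p below 0.05. Before adjustment limma's p of the dye effect was 7.25e-04 for Il1b, 0.00539 for Il1rn, 0.0188 for Casp1 and 0.073 for Il18. A fit of the 6 unturned arrays without set numbers called 21 (0.185%), of which 0 were members. That fit keeps the treatment change in its spread, so it could hardly call a member with a large change. It therefore does not bear on the dye effect of such members. All 7 rises had the same sign in both orientations.

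**Figure D4:**
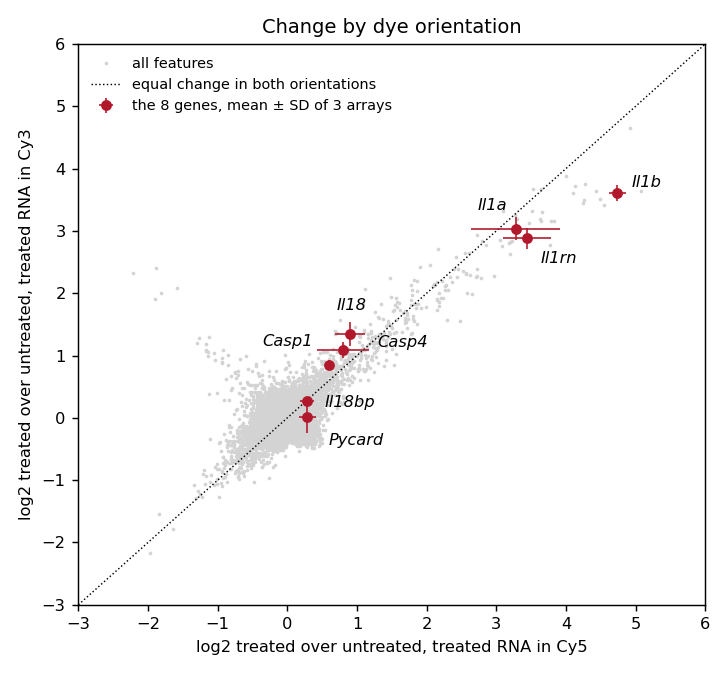
Mean log2 ratio of treated over untreated RNA on the 3 arrays with treated RNA in Cy5 (horizontal axis) and on the 3 with treated RNA in Cy3 (vertical axis) for all 11364 features in grey and the 8 genes in red with SD bars. Il1b, at 4.74 and 3.61, lies below the dotted line of equal change, and Il18, at 0.90 and 1.34, above it.

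The genes most like each of the 3 largest risers were those with the smallest root mean square difference over the 6 arrays. For Il1b they were Ifit1 (0.227), Ccl2 (0.306) and Ifit2 (0.358), an attractant of monocytes (Ccl2) between antiviral genes that interferon induces. For Il1rn they were Ifih1 (0.17), a sensor of viral RNA, the interferon-induced GTPase gene Igtp (0.191) and Slfn2 (0.201). For Il1a they were the transcription factor gene Myc (0.255), the GTPase gene Gbp2 (0.279) and the death receptor gene Fas (0.305). The distance reads 1 treatment at 1 time, so it compares sizes of change and their dye pattern.

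Of 72 other genes of the pathway, in 5 lists, 41 were measured on all arrays, and 14 of these rose, 7 fell and 20 were not called, with a median log2 change of 0.077. The rises were 34.1% of the 41, against 14.0% of all features, and the falls 17.1%, near the 15.0% of all features. None of the 6 listed other ligands of the family was measured, Il33 among them.

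Of 8 measured receptor genes, 2 rose, 1 fell and 5 were not called, with a median of -0.010. Of the 8 genes 25% were called higher and 12.5% lower, against 14.0% and 15.0% of all features. Il1rap, the co-receptor that interleukin-1 and interleukin-33 receptors share, rose by 0.45 ± 0.053 (adjusted p = 2.49e-04) and was between 0.36 and 0.58 on all 6 arrays. Il18rap, the co-receptor for interleukin-18, rose by 0.26 ± 0.016 (adjusted p = 0.00298). Its single arrays spread more widely, from 0.0056 with treated RNA in Cy5 to 0.53 with it in Cy3, both in set 2. Over the 6 arrays its adjusted p was 0.0288. Sigirr, an inhibitory member of the receptor family, fell by 0.38 ± 0.089 (adjusted p = 0.00103), although it was at 0.045 on the array of set 2 with treated RNA in Cy3 and had an adjusted p of 0.0491 over the 6 arrays. Il1rapl2 (0.080 ± 0.30) and Il1rl2 (-0.049 ± 0.17) had the largest values among those not called. The signalling receptor gene Il1r1 (-0.038 ± 0.11), the decoy receptor gene Il1r2 (-0.013 ± 0.061) and Il18r1 (-0.0076 ± 0.055), named after their values were seen, did not pass either (limma adjusted p = 0.661, 0.869 and 0.924).

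Of 13 measured signalling genes downstream of these receptors, 4 rose, 2 fell and 7 were not called, with a median of 0.077. The falls, at 15.4%, were about as frequent as over all features (15.0%), and the rises were 30.8% against 14.0%. Peli1, a ubiquitin ligase gene of Toll-like and interleukin-1 receptor signalling, rose by 1.67 ± 0.13, and Myd88, the adaptor that both receptor families use, by 0.72 ± 0.068. The inhibitor gene Tollip rose by 0.22 ± 0.099 and the kinase gene Map3k7 by 0.19 ± 0.010. Its partner genes Tab1 (-0.19 ± 0.045) and Tab3 (-0.18 ± 0.049, named as the other fall) fell. Ube2v1 (0.13 ± 0.17) and Traf6 (0.11 ± 0.023) did not pass. Without set 1 this list had 2 rises and 0 falls, and without set 2 4 rises and 0 falls, so both falls depended on a set. Over the 6 arrays it had 3 rises and 1 fall, and Map3k7 (adjusted p = 0.127) and Tab3 (adjusted p = 0.0718) did not pass. Calls over all features also fell in these fits, from 1586 rises and 1708 falls. They numbered 1271 and 1347 without set 1, 1479 and 1464 without set 2, and 1203 and 1264 over the 6 arrays.

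Inflammasome sensors and regulators had 6 rises, 2 falls and 5 members not called among 13 measured, with a median of 0.14. The falls, at 15.4%, were again near the 15.0% of all features, and the rises were 46.2% against 14.0%. Eif2ak2, the interferon-induced kinase that senses double-stranded RNA, rose by 1.70 ± 0.19. Naip2, a sensor gene for bacterial secretion systems with close relatives that a probe may also bind, rose by 0.54 ± 0.030, and Pstpip1, a partner of pyrin, by 0.52 ± 0.041. Nek7, the kinase that NLRP3 needs for its assembly, fell by 0.46 ± 0.069 and was below 0 on all 6 arrays. The channel gene Panx1 fell by 0.45 ± 0.10. Over the 6 arrays there were 4 rises and 2 falls. Casp8 (adjusted p = 0.084) and Sugt1 (adjusted p = 0.147), named here after their values were seen, no longer passed. That fit also called fewer of all features, 1203 higher and 1264 lower, against 1586 and 1708 by sets. Mefv (0.14 ± 0.084) and Brcc3 (-0.061 ± 0.16) were not called. The annotation listed no probe for Nlrc4, Aim2 or Nod2.

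Among 7 measured genes of pyroptosis, membrane rupture and release, 2 rose, 2 fell and 3 were not called, with a median of 0.12. Rises and falls were 28.6% each of these 7 genes, against 14.0% and 15.0% of all features. The pore-forming gene Gsdme fell by 0.42 ± 0.096, and Ninj1, which ruptures the membrane of dying cells, rose by 0.37 ± 0.050. Abca1, a lipid exporter gene, rose by 0.41 ± 0.30 but was at -0.36 on the array of set 3 with treated RNA in Cy5. Vps4b, of the membrane repair machinery, fell by 0.19 ± 0.071. Anxa2 (0.12 ± 0.054) and Gsdmc (0.12 ± 0.057) did not pass. Without set 2, and likewise without set 3, there was 1 fall in place of 2. Over the 6 arrays there were 1 rise and 1 fall, since Abca1 (adjusted p = 0.0624) and Vps4b (adjusted p = 0.0515) did not pass. Falls over all features also dropped, from 1708 to 1464 without set 2 and 1411 without set 3. Over the 6 arrays all features had 1203 rises and 1264 falls, against 1586 and 1708 by sets. No probe of Gsdmd, the pore gene that caspase-1 and caspase-11 open, was listed.

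**Figure D5:**
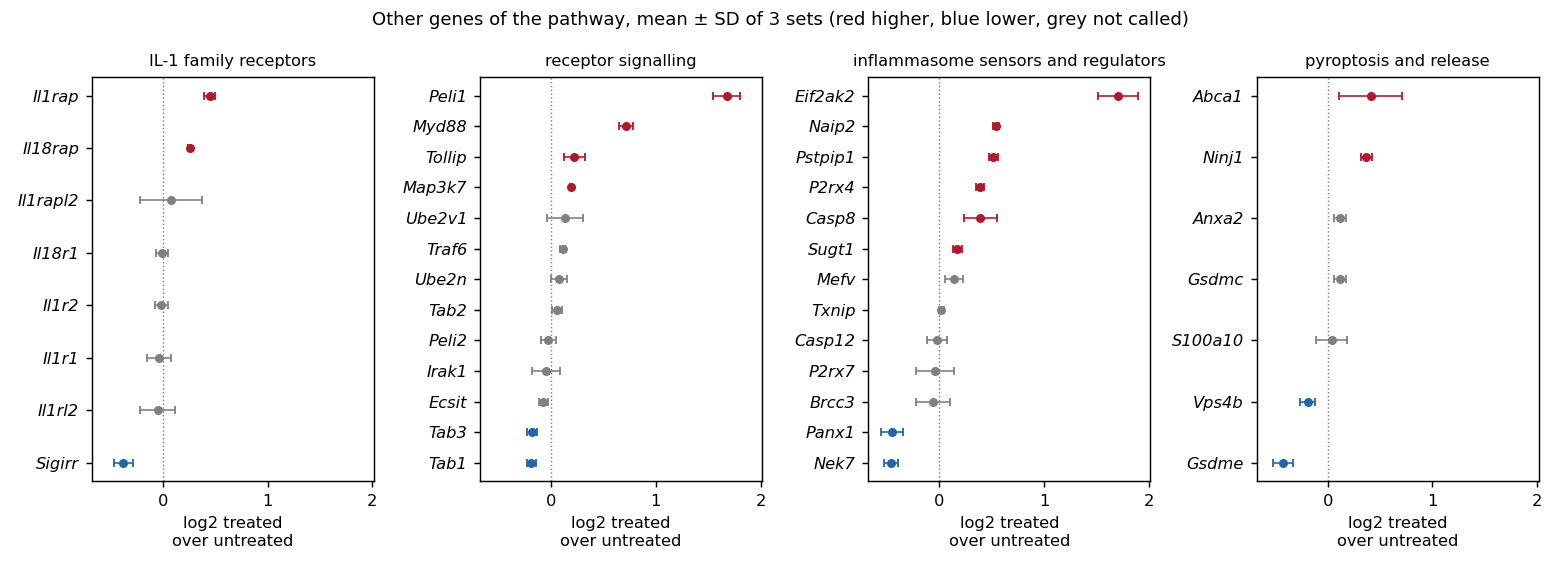
Mean log2 ratio of treated over untreated RNA (horizontal axis) with SD bars over 3 sets for the 41 other measured genes, in a panel for each of 4 lists, with red for called higher, blue for called lower and grey for not called. Peli1 and Eif2ak2, at 1.67 and 1.70, stand apart from the rest, which lie between -0.46 and 0.72.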

How the data were processed

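Total RNA of treated and untreated cells was compared on 6 two-colour arrays. The deposited table gives 1 log2 ratio per array for each of 16281 probes. The array of set 1 with treated RNA in Cy5 has a deposited median of 0, exact zeros included. Over the features measured on all arrays, every array median lay within 0.0131 of 0. The largest value, 6.643856, is log2 of 100. The scanner, background correction and normalization by the authors are not given in the sources used here. Channels were assigned per the labels, and the sign was turned where Cy3 held the treated RNA. The arrays of a set are assumed to share their RNA. Since no label ties the sets to separate cultures, p-values cover only the variation between these samples, possibly technical, and the number of arrays limits the precision.

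Probes with a value other than exactly 0 on all 6 arrays (13415) were averaged per gene, which gave 11364 features. Symbols came from the platform annotation (13738 probes with 1 symbol, 52 with several, 2491 with none), of which 13694 matched the GRCm38.p6 gene table by Entrez ID. Set means were tested against 0 with limma 3.58.1 (lmFit, eBayes, two-sided) in R 4.3.3, and the unturned means gave the dye effect. The fit was checked only on simulated set values, drawn independently with variances from the fitted model. They held no dye effect and no paired arrays, so the check does not bear on the pairing. Promoters came from RefSeq, and all 9 members matched. Members, lists and tests were chosen with earlier results of these data known. The text names all members, up to 5 called and 2 uncalled genes of each list by size of change, and for the 3 largest risers the 3 nearest genes. Alternatives covered centring, scaling, quantile normalization, set numbers as blocks, single orientations, left-out sets, features, zeros, variances and thresholds. No file holds intensities, so dim probes could not be filtered.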

Additional observations from a re-analysis of the deposited data

How the results depend on the processing

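All 7 rises kept their direction under every alternative run, and 6 or more of the 7 passed the test in each except that against a 1.5-fold change, where 5 did. Il18bp missed the threshold with treated RNA in Cy5 alone (0.2849, adjusted p = 0.0556), with exact zeros kept (0.1681, adjusted p = 0.0683) and against a 1.5-fold change (0.2795, adjusted p = 1), and Casp1 against a 1.5-fold change (0.7197, adjusted p = 0.287), since that test asks for more than a difference from 0. Pycard passed after quantile normalization (0.1595, adjusted p = 0.0479), which made 8 rises, and the cause of these shifts was not tested. Leaving out a set gave 4.15 to 4.20 for Il1b, 3.06 to 3.30 for Il1rn, 3.02 to 3.39 for Il1a, 1.10 to 1.13 for Il18, 0.88 to 1.00 for Casp4, 0.69 to 0.74 for Casp1, 0.24 to 0.32 for Il18bp and 0.098 to 0.18 for Pycard. Averaging in exact zeros lowered Il1rn to 1.58. Over the whole table, 1586 features rose and 1708 fell in the fit reported. These counts were 904 and 848 with the set number as a fixed replicate block, 931 and 894 with treated RNA in Cy5 alone, and 261 and 35 against a 1.5-fold change. Falls numbered 1079 with treated RNA in Cy3 alone and 1063 at an adjusted p below 0.01. Same-numbered arrays did not deviate together after turning (correlations of -0.484, -0.512 and -0.0203). Before turning the signs are reversed, so in sets 1 and 2 the unturned ratios shared a deviation, which can mask one of the RNA. The numbers are therefore neither shown to pair the RNA nor shown not to, and averaging within a set narrows the SDs. Across set numbers the correlation was 0.527 for set 2 with treated RNA in Cy5 and set 1 with it in Cy3, and 0.45 for the converse. Deviations within an orientation sum to 0, so these 2 values follow largely from the others and are not separate evidence. The fixed block left Il1b at 4.175 (adjusted p = 3.82e-04) and kept 7 rises among the members, as did the 6 arrays with no replicate block. Without the block the lists had 3 rises and 1 fall in receptor signalling and 4 and 2 among inflammasome sensors and regulators. Pyroptosis and release had 1 and 1. Over all features that fit called 1203 rises and 1264 falls.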

Other observations

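The genes beside the members on the chromosome, by RefSeq gene order in GRCm38.p6, were looked at after the values were seen. Il1a and Il1b are next to each other among protein-coding genes on chromosome 2, and both rose. On chromosome 9 Casp1, Casp4 and Casp12 follow one another. Casp1 and Casp4 rose, while Casp12, a further member of the family, was at -0.020 ± 0.095 and was not called (limma adjusted p = 0.812), and the gene on the other side, the glutamate receptor gene Gria4, was at 0.0029 ± 0.11. The neighbours of Il18, Bco2 (-0.048 ± 0.077) and Tex12 (0.092 ± 0.18), were not called either. Beside Il18bp, Numa1, a spindle pole gene, fell by 0.48 ± 0.088 (limma adjusted p = 3.03e-04), and Rnf121 was at -0.068 ± 0.17.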
